A study of Rattus norvegicus with 16 samples.

Results

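The conjugation enzymes of the glutathione transferase, glucuronosyltransferase and sulfotransferase families were described in the stomach and the middle part of the intestine of suckling rats. A gene was taken as a member if its symbol on the array began with Gst followed by a class letter (alpha, kappa, mu, omega, pi, theta or zeta), with Mgst, with Ugt1, Ugt2 or Ugt3, or with Sult. This rule found 49 of the 19776 gene names on the array, namely 21 Gst, 3 Mgst, 12 Ugt and 13 Sult genes. The rule used no measured value, but a gene with several probes was represented by its brightest probe in Cy5, by the mean over all arrays.

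The expression was measured on 16 two-colour arrays, each with RNA of the stomach or of the middle part of the intestine of 1 rat, and each tissue had 4 arrays of C rats and 4 of OH rats. All rats were Wistar pups (Wistar Han parents) that stayed with their mothers, were gavaged 2 times daily between days 14 and 21 of life and were killed at the age of 21 days. C pups received saline, and OH pups received 250 nmol/kg BW of obestatin, a peptide that is released from the precursor of ghrelin. By the methods each treatment was given to pups of 4 litters. The labels and methods do not say which arrays hold litter mates or whether arrays with the same number hold tissues of the same pup, so the p-values measure the spread between these samples. Every array set the Cy5-labelled RNA of 1 sample against a Cy3-labelled reference, 1 pool made from the RNA of all animals, and the dyes were not swapped. The value used throughout, here called the ratio, is log2 of Cy5 over Cy3 for the same probe, both as processed signals. A difference of 1 between groups is a 2-fold difference, and a level of 1 probe was not set against that of another.

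Conjugation makes foreign compounds, bile pigment, steroids and lipid peroxidation products more soluble and ready for export. Glutathione transferases join glutathione to electrophiles, glucuronosyltransferases of the endoplasmic reticulum add glucuronic acid from UDP-glucuronate, and sulfotransferases add sulfonate from the donor PAPS. The liver is the best known site of all 3 families, and the gut lining is the first tissue that swallowed compounds meet.

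The tissue labels were checked against marker lists. All 12 stomach mucosa markers were well above background on every stomach array, as were 12 of 13 enterocyte markers on every C middle intestine array and 13 on every OH one. Detection alone hardly separated the tissues. In each middle intestine group 10 of the stomach mucosa markers were also well above background on every array. The same held for 11 of the enterocyte markers in each stomach group. The mean ratio over the stomach mucosa markers lay between 1.94 and 3.09 on the stomach arrays and between -4.42 and -3.75 on the middle intestine arrays, while the enterocyte markers lay between -3.35 and -3.07 and between -0.32 and 1.95. Striated muscle markers were high on C stomach arrays 1, 3 and 4, at 2.81 to 3.51, but at -0.77 on C stomach array 2. Smooth muscle markers ranged from -2.58 to 0.98 on the OH stomach arrays, with arrays 1 and 4 highest, and pancreas markers were at -1.44 on OH middle intestine array 4 and between -3.02 and -2.80 on the other arrays of that group. Each group lay on 1 slide of its own and the OH slides were scanned on another day than the C slides, so that slide, scan day and group cannot be told apart. The median raw Cy3 signal was 188 to 195 on the C arrays and 341 to 399 on the OH arrays. In whole tissue, fewer cells of a type and less RNA per cell cannot be told apart either.

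The probes are 60-base oligonucleotides. Those of the alpha-class Gst genes are shown because members of this class were higher in opposite tissues, and they are given as in the array design, 5′ to 3′, in lower case.
Gsta1: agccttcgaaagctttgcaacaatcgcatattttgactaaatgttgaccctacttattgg
Gsta2: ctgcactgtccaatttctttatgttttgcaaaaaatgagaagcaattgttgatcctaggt
Gsta3: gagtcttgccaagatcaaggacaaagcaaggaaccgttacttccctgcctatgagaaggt
Gsta4: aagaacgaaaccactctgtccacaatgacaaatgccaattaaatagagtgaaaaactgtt
Gsta5: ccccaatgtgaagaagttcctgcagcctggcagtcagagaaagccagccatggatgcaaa
On the rn4 build of the design, the Gsta1 probe lies on the minus strand at chr9:20051658-20051717 and the Gsta3 probe, whose parts span 2539 bases, on the plus strand at chr9:20026897-20029435. The other alpha-class probes lie on another chromosome, with Gsta4 at chr8:83182995-83183054 and Gsta5 at chr8:83211804-83211863 on the plus strand, and Gsta2 at chr8:83299283-83299342 on the minus strand.

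The probes of the Sult1c genes are shown because these genes had the largest tissue differences of the family, and those of 4 Ugt2b genes because their ratios moved together between arrays.
Sult1c2: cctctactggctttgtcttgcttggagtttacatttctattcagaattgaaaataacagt
Sult1c2a: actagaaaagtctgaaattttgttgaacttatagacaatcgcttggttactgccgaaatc
Sult1c3: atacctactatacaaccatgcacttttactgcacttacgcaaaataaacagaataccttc
Ugt2b7: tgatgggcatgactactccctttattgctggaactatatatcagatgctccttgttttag
Ugt2b10: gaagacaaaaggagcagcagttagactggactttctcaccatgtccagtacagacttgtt
Ugt2b15: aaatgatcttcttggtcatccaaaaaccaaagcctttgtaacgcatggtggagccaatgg
Ugt2b17: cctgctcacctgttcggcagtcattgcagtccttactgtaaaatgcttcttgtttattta
The Sult1c probes lie at the start of chromosome 9 of rn4, Sult1c3 at chr9:531902-531961 and Sult1c2 at chr9:997939-997998 on the plus strand and Sult1c2a at chr9:1030881-1030940 on the minus strand. The Ugt2b probes lie on the plus strand of chromosome 14, Ugt2b17 at chr14:22366563-22366622, Ugt2b15, in parts, at chr14:22478931-22480029, Ugt2b7 at chr14:22522550-22522609 and Ugt2b10 at chr14:22743224-22743283. The closest probes of different members, those of Gstm3 and Gstm4, shared 36 of 60 bases when slid along each other without gaps, but cross-hybridisation of a probe to the transcript of a relative was not measured. By accession, 44 members were found in a RefSeq table of the GRCr8 assembly, 42 of them under the same symbol. The gene called Ugt2b15 on the array is Ugt2b35 there, and the one called Ugt2b17 on the array is Ugt2b15 there; the symbols of the array are kept here. The array's own descriptions also differ from its symbols for a pair of alpha-class genes, calling the target of the Gsta1 probe Gsta3 and that of the Gsta3 probe Gsta5 (Yc2 subunit), while RefSeq lists the accessions of both under the symbols used here.

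Most members were detected. For 33 members the Cy5 signal was well above background on each of the 16 arrays, and for 7 members, Gstt4, Ugt2b, Ugt3a2, Sult1d1, Sult2a1, Sult2a2 and Sult2b1, on none. On a single array 35 to 39 of the 49 members were well above background. By class, 18 of 21 Gst, 3 of 3 Mgst, 5 of 12 Ugt and 7 of 13 Sult genes were well above background on all 16 arrays, against 12486 of 19776 genes on the array. Tests were made for 37 members, 19 Gst, 3 Mgst, 7 Ugt and 8 Sult, whose probes were well above background on all 4 arrays of at least 1 group. The other 12 were Gsto2, Gstt4, Ugt2a1, Ugt2a3, Ugt2b, Ugt2b1, Ugt3a2, Sult1d1, Sult2a1, Sult2a2, Sult2b1 and Sult6b1.

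The comparison of the 2 tissues in C rats showed members of every family that differed by several log2 units. A total of 12 of the 37 tested members were higher in C stomach and 6 in C middle intestine (limma, adjusted p under 0.05), where 22.8% and 23.9% of the 14521 genes tested were called in these directions. The Gst genes counted 7 higher in stomach, 3 higher in middle intestine and 9 not called, the Mgst genes 0, 1 and 2, the Ugt genes 2, 1 and 4, and the Sult genes 3, 1 and 4. In OH rats 9 members were higher in stomach and 8 in middle intestine, beside 20.3% and 20.5% of all genes. The same direction was called in both treatments for 14 members and an opposite one for 0, counts that were not made over all genes.

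**Figure D1:**
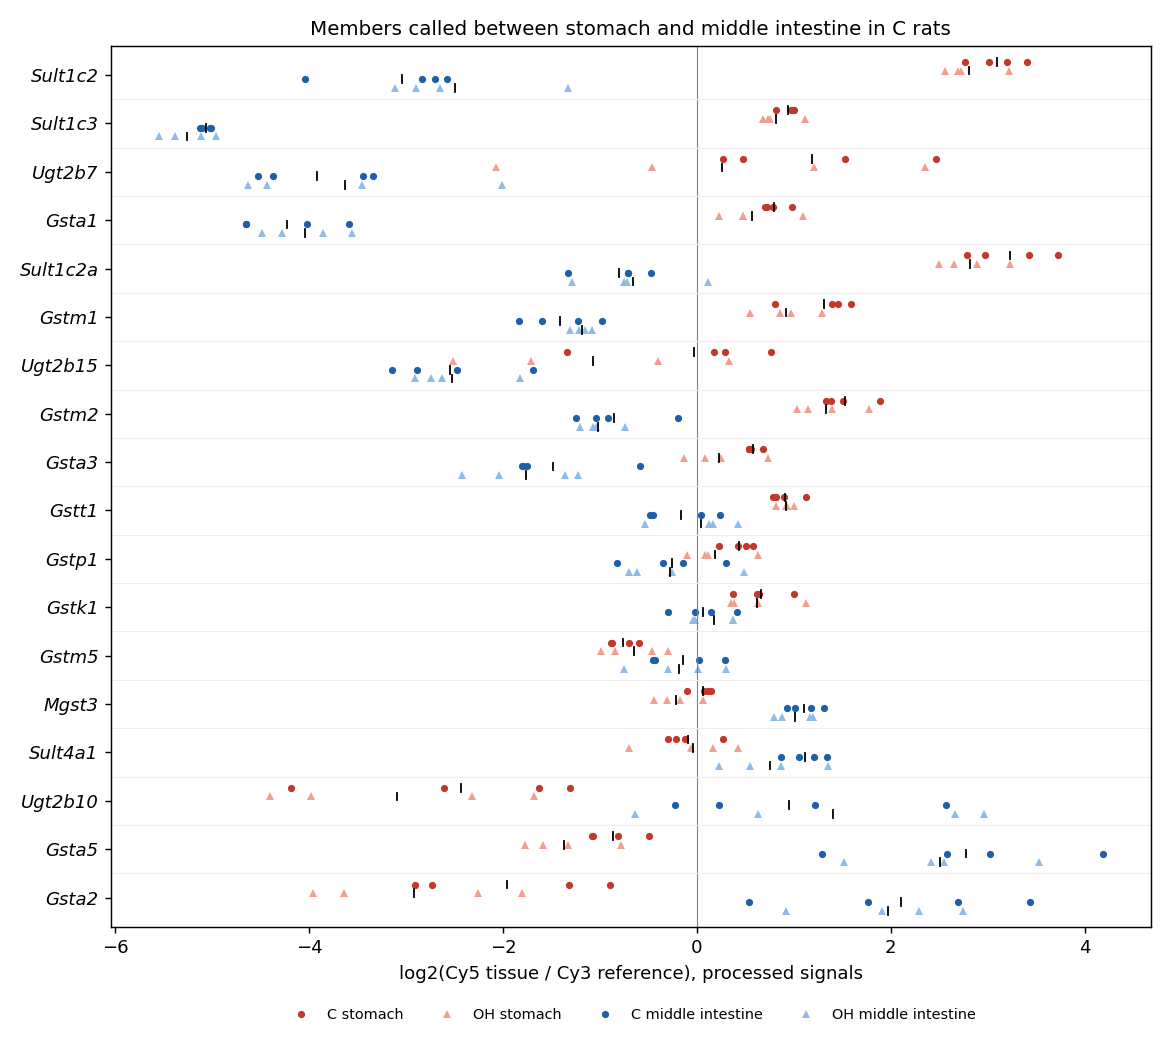
The ratio (log2 of the Cy5 tissue signal over the Cy3 reference, x axis) of the 18 members called between C stomach and C middle intestine, ordered by that difference; each point is 1 array, circles are C and triangles OH rats, and the short black lines are group means (n = 4). The C stomach mean lies to the right of the C middle intestine mean from Sult1c2 at the top, with a difference of 6.13, to Gstk1, and to the left from Gstm5 down to Gsta2, while single arrays of Gstp1 and Gstk1 overlap.

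The alpha-class enzymes, which conjugate lipid peroxidation products and reduce organic hydroperoxides, divided between the tissues. The ratio of Gsta1 was 0.70, 0.98, 0.73 and 0.78 on the C stomach arrays and -4.03, -4.65, -4.65 and -3.59 on the C middle intestine arrays. All stomach arrays were above all middle intestine arrays, by 5.02 ± 0.26 (SE) or 32.5-fold (limma, adjusted p = 1.59e-09), and by 4.61 ± 0.26 in OH rats. Gsta3, also on chromosome 9, was at 0.54, 0.54, 0.68 and 0.56 in C stomach and at -1.81, -1.79, -0.58 and -1.75 in C middle intestine. Its difference was 2.06 ± 0.30 (adjusted p = 7.07e-05), and its dimmer second probe gave 0.87 ± 0.28 (adjusted p = 0.0198).

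The alpha-class genes of chromosome 8 went the other way or did not pass the test. Gsta2 had ratios of -1.31, -2.91, -0.89 and -2.73 in C stomach and of 1.76, 2.69, 3.44 and 0.54 in C middle intestine. No array of one tissue reached the range of the other, and the difference, stomach minus middle intestine, was -4.07 ± 0.67 (adjusted p = 0.000209). Gsta5 was at -0.82, -1.08, -0.49 and -1.07 in C stomach and at 2.58, 3.03, 4.19 and 1.29 in C middle intestine, a difference of -3.64 ± 0.50 (adjusted p = 4.31e-05). In OH rats the differences were -4.88 ± 0.67 for Gsta2 and -3.87 ± 0.50 for Gsta5. Gsta4, a 4-hydroxynonenal conjugating enzyme, averaged 0.01 ± 0.68 (SD, n = 4) over the C stomach and 0.18 ± 0.30 over the C middle intestine arrays, which overlapped (adjusted p = 0.696).

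In the mu class, Gstm1 and Gstm2 were higher in stomach. Gstm1 had ratios of 1.46, 0.80, 1.59 and 1.39 in C stomach and of -1.84, -1.60, -1.23 and -0.98 in C middle intestine, a difference of 2.72 ± 0.21 (adjusted p = 1.05e-07). Gstm2, between 1.33 and 1.89 in C stomach and between -1.24 and -0.20 in C middle intestine, differed by 2.38 ± 0.22 (adjusted p = 8.17e-07). Gstm5, the 1 mu-class gene whose probe lies on the plus strand of chromosome 2, was higher in middle intestine in C rats (-0.62 ± 0.23, adjusted p = 0.0388), and in OH rats its difference of -0.47 did not pass (adjusted p = 0.123). Gstm4, Gstm6 and Gstm7 were not called in either treatment. Gstm6 was well above background on only 1 of the 4 C stomach arrays, on 2 arrays of each middle intestine group and on every OH stomach array. Its detection thus did not follow the direction of its Cy5 difference in OH rats. From Cy5 alone it was called higher in middle intestine, at -0.74 in C (adjusted p = 0.00794) and -0.62 in OH rats (adjusted p = 0.0237).

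The remaining Gst classes differed less. Gstt1, a theta-class enzyme that acts on halogenated methanes, was higher in stomach by 1.07 ± 0.20 in C rats (adjusted p = 0.000539) and by 0.87 ± 0.20 in OH rats. Gstp1 and Gstk1, the pi-class and the mitochondrial and peroxisomal kappa-class enzyme, were higher in C stomach by 0.69 ± 0.27 (adjusted p = 0.0468) and 0.60 ± 0.20 (adjusted p = 0.0254), but the arrays of both overlapped between the tissues and neither was called in OH rats. From Cy5 alone neither was called in C rats (adjusted p = 0.0997 for Gstp1 and 0.0638 for Gstk1). Gsto1, Gstt2, Gstt3 and Gstz1 were not called in either treatment. The second probe of Gstt3 gave 0.80 ± 0.30 in C rats (adjusted p = 0.0453) where the brighter one gave 0.44 ± 0.24 (adjusted p = 0.159). Gsto2 was well above background on 3 C stomach arrays and on 0 C middle intestine arrays, which makes its Cy5 signal at least 1.54-fold higher in C stomach, and it was too dim for the test.

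The membrane-bound Mgst enzymes belong to another protein family, which also makes leukotrienes and prostaglandins. Mgst3 had ratios of 0.12, -0.10, 0.07 and 0.14 in C stomach and of 1.02, 1.18, 1.31 and 0.93 in C middle intestine. The 2 groups did not overlap, and the difference was -1.05 ± 0.13 in C rats (adjusted p = 2.2e-05) and -1.22 ± 0.13 in OH rats (adjusted p = 5.48e-06). Mgst1 was higher in middle intestine in OH rats (-0.86 ± 0.28, adjusted p = 0.0271), and its difference of -0.67 in C rats did not pass (adjusted p = 0.0662). Mgst2 was not called in either.

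Among the glucuronosyltransferases, Ugt2b7 and Ugt2b15 were higher in C stomach and Ugt2b10 in C middle intestine. Enzymes of the Ugt2b family glucuronidate steroids, bile acids and drugs. The ratio of Ugt2b7 was 1.53, 0.27, 2.46 and 0.48 in C stomach and -3.34, -4.53, -3.44 and -4.37 in C middle intestine, so that the groups did not overlap, and the difference was 5.11 ± 0.83 (adjusted p = 0.000184). In OH rats it was 3.89 ± 0.83 (adjusted p = 0.00187), with OH stomach array 4, at -2.07, just below OH middle intestine array 1, at -2.01. Ugt2b15 was at 0.29, -1.34, 0.76 and 0.18 in C stomach and at -2.48, -2.88, -1.69 and -3.14 in C middle intestine. It differed by 2.52 ± 0.57 in C rats (adjusted p = 0.00255) and by 1.45 ± 0.57 in OH rats, where it did not pass (adjusted p = 0.0589).

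Ugt2b10 was at 1.22, 0.23, 2.57 and -0.22 in C middle intestine and at -1.63, -4.18, -1.31 and -2.61 in C stomach, where its Cy5 signal was well above background on 2 arrays. The C difference was -3.38 ± 0.90 (adjusted p = 0.00735). On the OH stomach arrays it was not well above background at all, and Cy5 was at least 15.2-fold higher in OH middle intestine (adjusted p = 0.00122). Ugt2b10 entered the test through the middle intestine arrays alone, the tissue in which it was higher. Ugt2a3, another gene of the chromosome 14 cluster, was well above background on 3 of 4 arrays in each middle intestine group and on 0 of 8 stomach arrays. Its Cy5 signal was at least 4.69-fold higher in the C and at least 7.58-fold higher in the OH middle intestine, and it was too dim for the test.

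The Ugt1a genes are known to share their last exons. The accessions that the array gives for Ugt1a6 belong in RefSeq to Ugt1a5, Ugt1a6 and Ugt1a7c, and its brighter probe begins at base 2259 of the transcript, so that its value cannot be ascribed to Ugt1a6 alone. It was not called in C rats (-0.19 ± 0.22, adjusted p = 0.501), and in OH rats it was higher in middle intestine (-0.63 ± 0.22, adjusted p = 0.0366), while its second probe gave -0.45 there (adjusted p = 0.107). Ugt1a9 was not called in either treatment. Ugt2b17 and Ugt2b37 were not called either. For Ugt2b37 the second probe, well above background on 2 of 4 arrays in each middle intestine group, gave a C difference of 2.99 ± 1.00 (adjusted p = 0.0252) where the brighter one gave 0.10 ± 0.54 (adjusted p = 0.9).

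The 2 largest differences of all members were those of Sult1c2 and Sult1c3, of the Sult1c genes that sulfonate phenols and hydroxyarylamines. Sult1c2 had ratios of 3.20, 2.76, 3.01 and 3.40 in C stomach and of -2.84, -2.70, -4.04 and -2.58 in C middle intestine. This is a difference of 6.13 ± 0.37, or 70.2-fold (adjusted p = 8.48e-09). Sult1c3 was at 0.97, 1.00, 0.99 and 0.81 in C stomach and at -5.02, -5.13, -5.01 and -5.10 in C middle intestine, which gave 6.01 ± 0.13 (adjusted p = 3.77e-13) with an SD within either group of at most 0.09. Sult1c2a, at 3.42, 2.79, 2.97 and 3.72 against -0.71, -0.47, -1.33 and -0.71, differed by 4.03 ± 0.29 (adjusted p = 5.37e-08), and its second probe by 3.92 ± 0.23. In OH rats the differences were 5.30 ± 0.37 for Sult1c2, 6.07 ± 0.13 for Sult1c3 and 3.48 ± 0.29 for Sult1c2a, and the 4 arrays of the tissues did not overlap for any of them.

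Sult4a1, a sulfotransferase best known from brain, was the 1 Sult gene higher in middle intestine. Its ratios were 1.20, 0.87, 1.06 and 1.34 in C middle intestine and -0.22, -0.30, -0.12 and 0.27 in C stomach, a difference of -1.21 ± 0.25 (adjusted p = 0.00133). In OH rats the difference was -0.79 ± 0.25 (adjusted p = 0.0215) and the arrays overlapped. From Cy5 alone Sult4a1 was called in C rats (-1.10, adjusted p = 0.00833) but not in OH rats (-0.63, adjusted p = 0.113). The phenol sulfotransferase Sult1a1, the thyroid hormone sulfotransferase Sult1b1, Sult2a6 and Sult5a1 were not called between the tissues. Sult6b1 was well above background in Cy5 on 2 C middle intestine arrays and nowhere else, with Cy5 at least 2.31-fold higher there than in C stomach. The Cy3 signal of the pool was also high on C middle intestine array 1, at 6.39 (log2) beside 6.38 in Cy5. On array 3 it was 4.28 beside 5.08. The bound uses Cy5 alone.

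**Figure D2:**
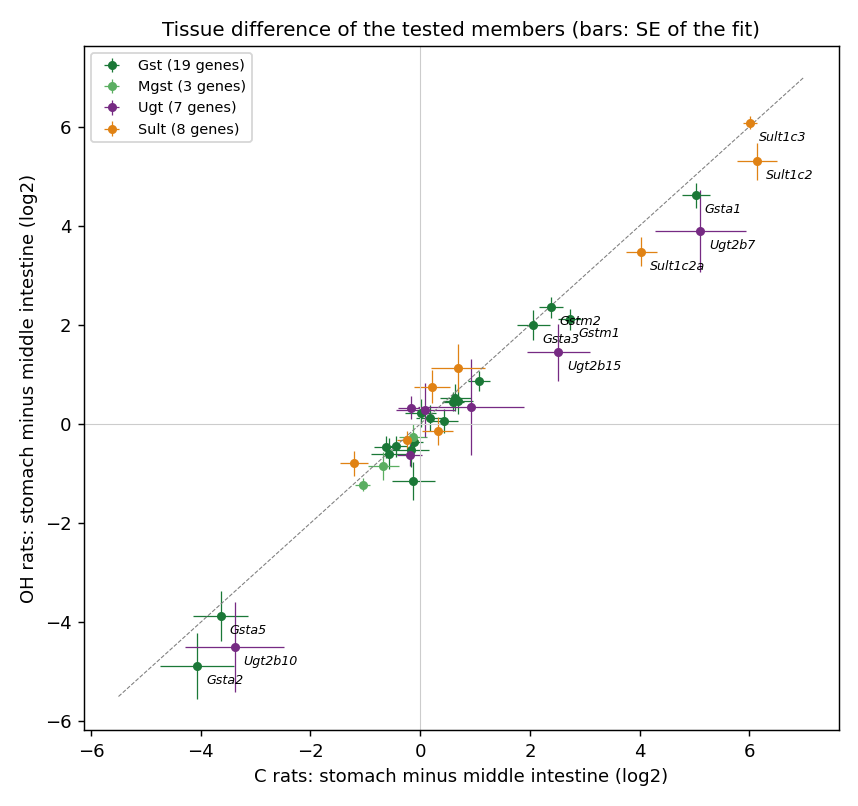
Stomach minus middle intestine (log2) in C rats (x axis) and in OH rats (y axis) for the 37 tested members, coloured by family, with bars for the SE of the fit and a dashed line where the values are equal. Members lie along the dashed line, with Sult1c2, Sult1c3, Gsta1 and Ugt2b7 at the upper right and Gsta2, Gsta5 and Ugt2b10 at the lower left. The sign is the same in both for 35 of 37, a count that was not made over all genes.

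The C and OH rats are separate samples, so the 2 tissue comparisons share no array. The 4 members called in C rats alone were Ugt2b15, Gstp1, Gstk1 and Gstm5, and the 3 called in OH rats alone were Gstm3, Mgst1 and Ugt1a6. With the replicate number as a block, Ugt2b15 (adjusted p = 0.0135) and Gstk1 (adjusted p = 0.0411) were called in OH rats too. The difference between the treatments in these tissue differences was tested as an interaction. It was called for 0 of 37 members, beside 0% of all genes, with 0.836 as the lowest adjusted p of a member, and for 0 members at an unadjusted p under 0.05, beside 5.92% of all genes. Ugt1a9 and Sult1b1 had opposite signs in C and OH rats, and neither was called in either.

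The 4 members with mean ratios under -1 in every group were Ugt2b1, Ugt2b17, Sult2a1 and Sult2a6. Sult2a enzymes sulfonate hydroxysteroids and bile acids, mainly in liver. Where Cy5 is not well above background the ratio is only an upper bound. The ratio of Sult2a6 lay between -6.63 and -5.67 over the 16 arrays and that of Sult2a1 between -5.02 and -3.42, and Ugt2b1 ranged from -8.02 to -4.06. The Cy3 reference was well above background for all 3 on all 16 arrays, whereas Cy5 was well above background on 14 arrays for Sult2a6, on 1 for Ugt2b1 and on 0 for Sult2a1. Over the array, 609 genes (4.28% of the 14221 with Cy3 well above background on all arrays) had mean ratios under -1 in every group. Among the 12 liver markers with such a Cy3 signal there were 11, among the 11 pancreas markers 4, among the 9 smooth muscle markers 2 and among the stomach mucosa and enterocyte markers 0. The labels name stomach and middle part of intestine as the tissues of the pool, and what else it held was not tested.

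**Figure D3:**
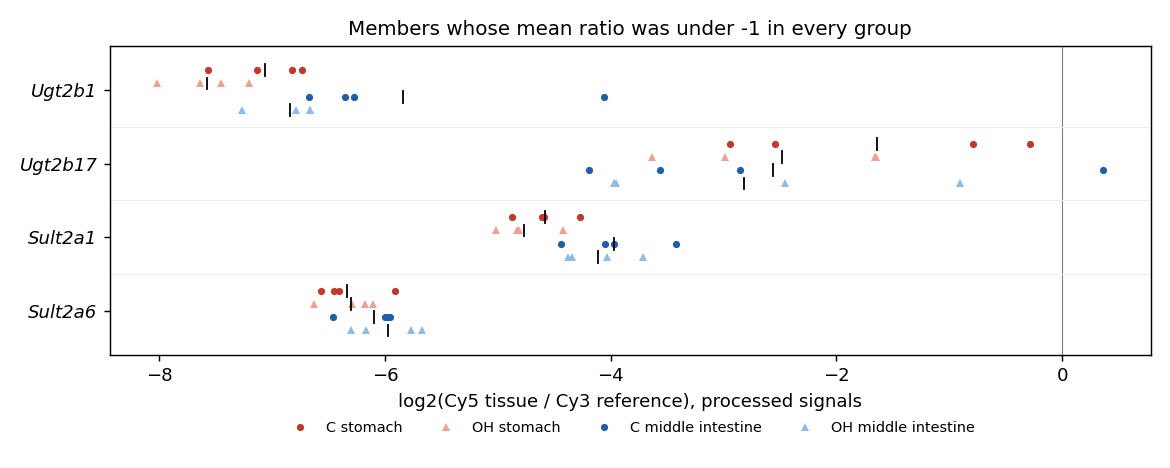
The ratio (log2 of the Cy5 tissue signal over the Cy3 reference, x axis) of the 4 members with mean ratios under -1 in every group; points are arrays, with colours and symbols by group, and black lines are group means (n = 4). All points of Sult2a6, Sult2a1 and Ugt2b1 lie at or below -3.42, and the Ugt2b17 points spread from -4.19 to 0.36.

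Among the tested members, Ugt2b17, Ugt2b10 and Ugt2b7 had the largest SE in the fit, 0.96, 0.90 and 0.83. Ugt2b17 was at -0.79, -2.54, -0.29 and -2.94 in C stomach and at -1.66, -2.99, -1.65 and -3.63 in OH stomach. It was at -2.86, -3.56, 0.36 and -4.19 in C middle intestine and at -0.90, -3.97, -2.46 and -3.96 in OH middle intestine. In each group both arrays numbered 1 and 3 were above both arrays numbered 2 and 4. The same held for Ugt2b7 and Ugt2b15 in all 4 groups and for Ugt2b10 and Ugt2b37 in 3 groups. The mean of arrays 1 and 3 exceeded that of arrays 2 and 4 in every group for these 5 genes, by 1.66 to 2.63 for Ugt2b17, 1.06 to 3.04 for Ugt2b7, 0.60 to 2.08 for Ugt2b15, 0.49 to 2.19 for Ugt2b10 and 0.68 to 1.71 for Ugt2b37. The Cy5 signal of Ugt2b17 was well above background on 12 of the 16 arrays and that of Ugt2b10 on 10. The largest value of Ugt2b10, 2.19, came from OH stomach, where it was not well above background on any array. For Ugt1a9 these values ran from -0.09 to 0.46 and for Ugt1a6 from -0.03 to 0.37. Of the 21170 probes kept, 11 had arrays 1 and 3 above arrays 2 and 4 in all 4 groups and 18 below, and 3 of the 11 were these Ugt2b genes. This was noticed after the values were seen, and the labels do not say what the numbers stand for.

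The question of the study was what enteral obestatin does to the developing gut, and no member was called between OH and C rats. In stomach, 0 of 37 members passed the adjusted threshold, beside 0% of all genes, and 1 passed an unadjusted p of 0.05, beside 10.8% of all genes. In middle intestine, 0 of 37 passed, beside 0.234% of all genes, and 1 passed unadjusted, beside 9.31%. Differences ran from -1.05 to 0.60 in stomach and from -0.88 to 0.54 in middle intestine.

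The lowest p in stomach was that of Gstm3, a mu-class gene. Its ratios were 1.82, 0.06, 0.81 and 1.87 in C stomach and 0.35, 0.18, 0.41 and -0.26 in OH stomach. Arrays 1, 3 and 4 of the C group were above all OH arrays and C array 2 was among them. The difference was -0.97 ± 0.39 (limma, unadjusted p = 0.0238, adjusted p = 0.413; exact permutation test, two-sided, p = 0.114). The striated muscle markers were high on the same 3 C stomach arrays, and their part in this difference was not tested. In middle intestine Gstm3 was at 1.26 ± 0.62 (SD, n = 4) in C and 1.33 ± 0.39 in OH rats. The array has 2 Gstm3 probes for the same position, chr2:203532376-203532435 on the minus strand of rn4. They differ at 2 bases, in capitals here, and the other probe gave a stomach difference of -1.04 (unadjusted p = 0.02).
Gstm3, brighter probe: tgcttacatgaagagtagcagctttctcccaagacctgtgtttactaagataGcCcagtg
Gstm3, other probe: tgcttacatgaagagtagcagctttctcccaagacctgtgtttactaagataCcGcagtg

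The next in stomach were Mgst3 at -0.27 ± 0.13 (adjusted p = 0.492), Gstm1 at -0.39 ± 0.21 (adjusted p = 0.523), Sult1b1 at -0.53 ± 0.28 (adjusted p = 0.525) and Ugt2b15 at -1.05 ± 0.57 (adjusted p = 0.537), and the arrays of C and OH rats overlapped for all of them. Ugt2b15 was at -0.41, -1.71, 0.33 and -2.51 on the OH stomach arrays, where the C arrays spanned -1.34 to 0.76. With arrays weighted by their agreement with the group, Gstm3 (-1.29, adjusted p = 0.0346) and Ugt2b15 (-1.75, adjusted p = 0.0325) passed, and no member passed in any other setting that used the Cy5 signal and an adjusted p. Mgst3, Gstm1 and Sult1b1 came close with these weights, at adjusted p of 0.0535, 0.0576 and 0.0581. The share of all genes that passed with array weights was not counted. The calls of Gstm3 and Ugt2b15 can therefore not be read as particular to the members.

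More members were lower than higher in OH stomach, 30 against 7, beside 7263 lower of all 14521 genes tested. The median difference of the members was -0.27, where the median of all genes was -0.0001. The lower members were 16 of 19 Gst, 3 of 3 Mgst, 7 of 7 Ugt and 4 of 8 Sult genes. From Cy5 alone 28 of 37 were lower, and with any 1 array left out 29 to 34. The mean ratio of the striated muscle markers was 2.17 in C and 0.32 in OH stomach, that of the forestomach epithelium markers 1.06 and 0.43, that of the smooth muscle markers -2.04 and -0.69 and that of the stomach mucosa markers 2.79 and 2.57. The part of this mixture in the count was not tested. In middle intestine 22 of 37 members were lower in OH rats (median -0.06), beside 7684 of all 14521 genes (median -0.02). From Cy5 alone it was 10 of 37 members.

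The lowest p in middle intestine was that of Ugt1a9. Its probe lies at chr9:86987459-86987518 and that of Ugt1a6 at chr9:87098271-87098330, both on the plus strand of rn4. The ratios of Ugt1a9 were 0.49, 1.00, 1.07 and 0.73 in C and 0.29, 0.14, 0.23 and -0.53 in OH middle intestine. All OH arrays were below all C arrays, by 0.79 ± 0.24 (limma, unadjusted p = 0.00456, adjusted p = 0.186; exact permutation test, two-sided, p = 0.0286, the smallest that 4 against 4 arrays allow). From Cy5 alone the difference was -0.45 (adjusted p = 0.493), while the Cy3 signal of the pool for this probe was 0.40 higher on the OH than on the C middle intestine arrays (adjusted p = 0.00302). In stomach Ugt1a9 differed by -0.29 ± 0.24.

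The Cy3 signal of the common reference, which holds the same pool on every array, differed between the OH and C arrays for many genes. At the same threshold it was called for 18 of 37 members between OH and C stomach arrays and for 25 of 37 between OH and C middle intestine arrays, beside 49.7% and 66.6% of all genes. Among members these Cy3 differences reached 0.76 and 0.81. From Cy5 alone no member was called between OH and C rats in either tissue. Between the tissues of C rats the Cy3 differences of members reached 0.40, beside ratio differences from -4.07 to 6.13.

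The next in middle intestine were Ugt2b37 (-0.88 ± 0.54, adjusted p = 0.644), Sult1c2 (0.54 ± 0.37, adjusted p = 0.683), Sult4a1 (-0.37 ± 0.25, adjusted p = 0.687) and Sult1c3 (-0.19 ± 0.13, adjusted p = 0.692). For Sult1c2 the OH middle intestine arrays were at -1.33, -2.90, -2.65 and -3.11 and the C arrays between -4.04 and -2.58, so that OH array 1 alone stood above the C arrays. Neither Sult4a1 nor Sult1c3 kept its sign from Cy5 alone, where they were at 0.33 and 0.46.

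**Figure D4:**
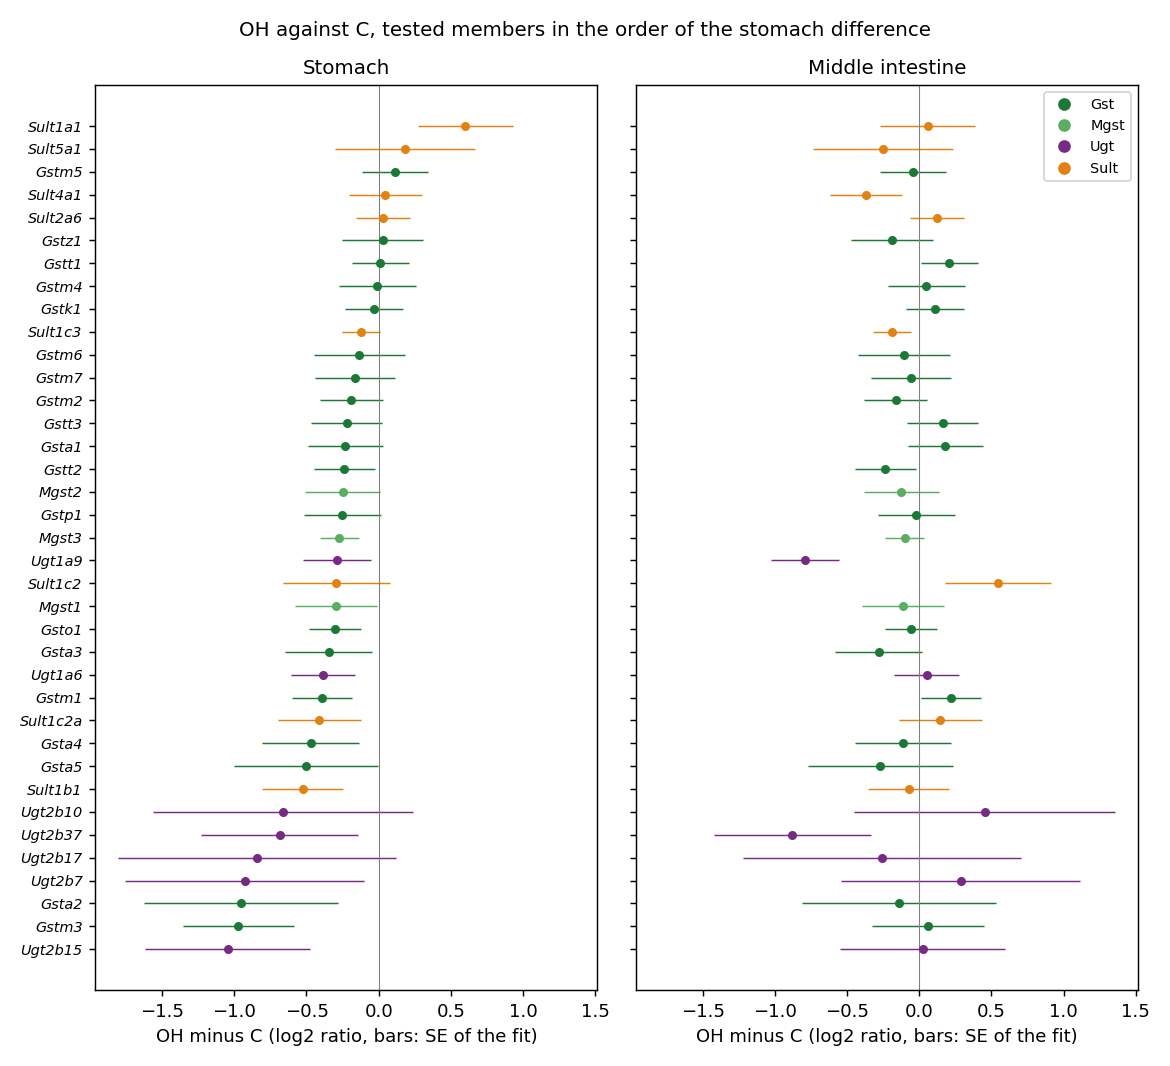
OH minus C (log2 ratio, x axis) in stomach (left) and middle intestine (right) for the 37 tested members, in the order of the stomach difference, with bars for the SE of the fit (n = 4 arrays in each group) and colours by family. In stomach 30 of 37 points lie to the left of 0, down to Ugt2b15 at -1.05; in middle intestine the points lie on both sides, with Ugt2b37 and Ugt1a9 farthest to the left.

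Genes that supply the donors, handle the products or control the enzymes were described from 8 set lists, whose counts stand beside the 22.8% and 23.9% of all genes called higher in C stomach and in C middle intestine, and 20.3% and 20.5% in OH rats. For glutathione synthesis and recycling, 5 of 10 tested genes were higher in C stomach and 3 in C middle intestine, with a median difference of 0.46, and in OH rats 5 and 5, with a median of 0.02. The gamma-glutamyl transferase Ggt1, which breaks down glutathione outside the cell, had a difference of -4.24 ± 0.32, and the cystine transporter Slc7a11 one of 2.78 ± 0.35. Gclc, the catalytic subunit of glutamate-cysteine ligase, was higher in stomach by 1.52 ± 0.26. Of the 6 genes that turn glutathione conjugates into mercapturates, the dipeptidase gene Dpep1 alone was called, in C (-3.00 ± 0.66) and in OH rats (-2.72 ± 0.66). For the supply of UDP-glucuronate and the hydrolysis of glucuronides, 4 genes were tested. Ugdh, which makes UDP-glucuronate, was higher in C stomach (0.93 ± 0.20) but not called in OH rats (0.27 ± 0.20, adjusted p = 0.301), and the beta-glucuronidase gene Gusb was higher in C (-0.82 ± 0.12) and OH middle intestine (-0.60 ± 0.12).

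For PAPS supply and sulfate handling, 1 of 11 genes was higher in C stomach and 5 in C middle intestine, and in OH rats 2 and 5. The 1 in C stomach was Papss1, a PAPS synthase (1.61 ± 0.12). Slc26a3, an anion exchanger that also carries sulfate, had a difference of -4.32 ± 0.37. The sulfate transporter gene Slc13a1 was not well above background in stomach, and its Cy5 signal was at least 8.56-fold higher in C middle intestine (adjusted p = 0.00628). Of the other conjugating enzymes, those higher in C middle intestine were the histamine methyltransferase gene Hnmt, with Cy5 at least 14.9-fold higher and not well above background in stomach (adjusted p = 0.000232), and the arsenic methyltransferase gene As3mt (-1.72 ± 0.25). Slc13a1 and Hnmt entered the test through middle intestine arrays alone, the tissue in which they were higher. Of 12 further genes with a glutathione transferase fold or of the Mgst family, 3 were higher in each tissue in C rats and 3 in stomach and 2 in middle intestine in OH rats, with Ltc4s, the leukotriene C4 synthase, at 3.28 ± 0.39 and the channel-like Clic5 at -3.13 ± 0.25.

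All 9 genes of conjugate export were called, 4 higher in stomach and 5 in middle intestine in C as in OH rats. Abcg2, an exporter of sulfated compounds at the apical membrane, had a difference of -4.92 ± 0.36 and Abcc6 one of -3.59 ± 0.25. The apical exporter of glutathione and glucuronic acid conjugates, Abcc2, was at -2.93 ± 0.56, and Abcc1, Abcc3, Abcc4 and Abcc5 were higher in stomach by 1.01 to 3.24. Of 21 regulators, 5 were higher in C stomach and 10 in C middle intestine, and in OH rats 2 and 10. The intestinal homeobox gene Cdx2 had a difference of -6.89 ± 0.11, and Nqo1, a classical target of the transcription factor Nrf2, one of 3.93 ± 0.35. Nfe2l2, which encodes Nrf2, was higher in stomach by 1.12 ± 0.13. Gclc, Nfe2l2 and the other Abcc genes than Abcc6 were chosen for mention after their values were seen. Between OH and C rats no gene of these lists was called in either tissue.

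The promoters of 43 members were found in a RefSeq table, and the 250 bases before each start site were searched on both strands for 4 short motifs. TGACNNNGC, the core of the antioxidant response element, was in 4 of 43 members (9.3%) and in 3373 of all 33469 promoters. GCGTG, the core that the aryl hydrocarbon receptor binds, was in 9 of 43 (20.9%) and in 25.9% of all. GTTAAT, one arm of the HNF1 site, was in 4 of 43 (9.3%) and in 6.45% of all, and TTTATG, a site of Cdx proteins, was in 9 of 43 (20.9%) and in 11.4% of all. Of the members with a promoter in the table, 2 of 11 higher in C stomach and 3 of 5 higher in C middle intestine held GCGTG. For TGACNNNGC these counts were 1 and 1, for GTTAAT 0 and 0 and for TTTATG 1 and 0. TTTATG was otherwise in 5 of 17 members not called and in 3 of 10 not tested. The promoters of a pair of alpha-class genes called in opposite tissues are shown with GCGTG on either strand in capitals. They were chosen because they hold it, while Gsta1 and Gsta5, also called in opposite tissues, have 0 matches and Gsta4, not called, has 3.
Gsta2: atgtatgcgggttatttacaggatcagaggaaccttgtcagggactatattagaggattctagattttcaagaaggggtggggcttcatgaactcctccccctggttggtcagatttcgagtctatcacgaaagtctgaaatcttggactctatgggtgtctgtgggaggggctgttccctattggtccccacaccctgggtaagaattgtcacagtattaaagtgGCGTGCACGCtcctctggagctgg
Gsta3: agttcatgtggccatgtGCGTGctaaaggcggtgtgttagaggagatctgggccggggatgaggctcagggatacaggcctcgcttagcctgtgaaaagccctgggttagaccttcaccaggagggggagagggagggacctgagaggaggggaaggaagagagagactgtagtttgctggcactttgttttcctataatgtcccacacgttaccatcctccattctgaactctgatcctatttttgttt
In the GRCr8 assembly these windows are chr8:88077093-88077342 on the minus strand for Gsta2 and chr9:31166793-31167042 on the plus strand for Gsta3. Gsta2 has 2 matches that adjoin, beginning 24 and 19 bases before the start site, and Gsta3 has 1 at 233 bases. A match of letters is no evidence that a factor binds there.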

How the data were processed

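The authors hybridised Cy5-labelled RNA of 16 samples against a Cy3-labelled pool of RNA on 2-colour Agilent rat arrays (design on build rn4) and scanned them. The deposited files hold intensity values per spot as raw mean and background signals and as processed signals (background-subtracted and dye-normalized by Agilent Feature Extraction, 10.10.1.1 per the file headers and 10.7.3.1 per the labels), and log10 ratios of processed Cy5 over Cy3, which the authors also deposited as a table of the whole series. Here spots of a probe were averaged as log2 ratios without control spots and outlier flags, and of 30367 probes the 21170 whose Cy5 signal cleared the background in every array of some group were tested. All 16 arrays were fitted in limma 3.58.1 (R 4.3.3; lmFit and eBayes) with 4 groups, and p-values were adjusted over all kept probes (Benjamini-Hochberg, threshold 0.05, two-sided). A gene was read at its brightest probe. Errors of differences are SEs from the fit, and the number of arrays limits the precision. Exact permutation tests compared single genes. Bounds ("at least") set the brighter group's mean Cy5 signal against, per array of the dim group, the higher of the probe's own signal and the lowest signal well above background, and they are open to dye bias. The script was tested on simulated data. Full statistics were given for up to 5 members per family with the largest called and non-overlapping tissue difference in C rats, the 5 lowest p-values of each OH against C comparison and the 2 largest called genes of each list. Members and lists were chosen with earlier results of these data known. Promoters and symbols came from RefSeq (GRCr8). The result of 1 gene of a list is not reported here.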

Additional observations from a re-analysis of the deposited data

Results flagged for a closer look

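In 8 of 148 groups of 4 arrays the highest or lowest array stood apart from the other 3 by a gap past Dixon's critical value for 4 values (gaps are given as shares of the group's range). About 1 in 20 groups, here 7.4, would do so by chance. Array 3 of C middle intestine had a Gsta3 ratio of -0.58 where the others were between -1.81 and -1.75 (0.955), and Gsta3 was also apart in C stomach, on array 3 at 0.68 (0.833). Gstm4 stood apart in OH stomach on array 3 at 0.66 (0.878). Gstm6 was apart on array 4 of both middle intestine groups, at 1.52 in C (0.837) and 1.65 in OH rats (0.852). In each of these groups it was well above background on 2 of 4 arrays. Gstz1 was apart on C middle intestine array 1 at -0.98 (0.849), Sult1c3 on OH stomach array 3 at 1.12 (0.841) and Sult2a6 on C middle intestine array 4 at -6.46 (0.913). Sult2a6 was well above background on 3 of the 4 C middle intestine arrays. In the Cy3 reference channel, 11 of 12 liver markers with a Cy3 signal on all arrays had mean ratios under -1 in every group, beside the members Ugt2b1, Ugt2b17, Sult2a1 and Sult2a6. The cause was not tested.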

How the results depend on the processing

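The members called between tissues numbered 15 to 21 in C rats under 16 other settings, and 15 to 19 with any 1 array left out, in C as in OH rats. Among the 16 settings was the Cy3 reference alone, the same pool on every array, which is no check of the tissue calls. It gave 16 calls in C rats, beside 45.4% of all genes, and 8 in OH rats, beside 23.1%. Between OH and C rats the Cy3 reference alone gave 18 calls in stomach and 25 in middle intestine, beside 49.7% and 66.6% of all genes. For the difference between tissues it gave 13, beside 34.1%. Array weights gave 2 calls in stomach, where the share of all genes was not counted, and an unadjusted p gave 1 in each tissue. Leaving out any 1 array gave 0 calls for these 3 comparisons. The count of members lower in OH middle intestine, 22, fell to 10 from Cy5 alone and to 14 with array weights, and ranged from 11 without C middle intestine array 3 to 25 without OH middle intestine array 1 (both counts of lower members were added after seeing the data). The OH minus C differences in middle intestine turned to 0.33 for Sult4a1 and 0.46 for Sult1c3 from Cy5 alone and to 0.79 for Sult1c3 with ratios scaled between arrays. The cause was not tested. Of 712 values of named genes under alternatives, 705 kept direction and side of the threshold. These alternatives include fits that left out an array of a group not compared, which cannot change the difference. For OH against C, where no member was called, keeping the side meant staying uncalled. The count is therefore a weak check. With the replicate number as a block, members called were 18, 19, 0, 0 and 0 in the 5 comparisons (of the 18 in C rats, 17 were called without it; Gstm7 was gained, adjusted p = 0.0372), and 18 genes in place of 34 were called between OH and C middle intestine. Deviations of same-numbered arrays correlated between tissues at 0.06 to 0.25 in C and at -0.12 to 0.32 in OH rats, so the numbers were not taken as pairs. Depth here means signal: 12 members were too dim for any test.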
